A study of Mus musculus with 7 samples.

Results

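Genes of eosinophils and mast cells, 8 in all among the 56854 gene identifiers held by every file, were described in healing mouse shoulders. They were chosen by name: Prg2, Prg3 and Epx stand for eosinophils, and Cpa3, Cma1, Tpsb2, Mcpt4 and Ms4a2 for mast cells. The libraries came from whole shoulder joints taken 2 weeks after surgical repair of the left supraspinatus tendon, a tendon of the rotator cuff. The groups were wild type (n = 3) and Tnc-/- (n = 4), the latter a knockout, by its label, of the gene for tenascin C, a glycoprotein of the extracellular matrix that appears in injured tissue. Every joint had been operated on, so no uninjured joint enters a comparison. The labels give no strain, sex, age or design of the Tnc allele, and do not say in words that each sample is a separate mouse, so p-values measure the spread between these samples. A whole joint can hold tendon, muscle, bone and marrow together, and in such bulk tissue fewer cells of a type and less RNA per cell cannot be told apart.

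Eosinophils and mast cells are granulocytes of type 2 immunity, the arm of the immune system that responds to parasites and allergens. Eosinophils ripen in the bone marrow under interleukin 5 and fill their granules with toxic basic proteins while still there, so transcripts of granule proteins are most abundant in marrow precursors and low in mature cells. Mast cells leave the marrow as precursors, ripen in connective tissue under stem cell factor, the ligand of the receptor Kit, and keep transcribing granule proteases when mature.

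All 8 members were found in the files, and all 8 passed the filter on low counts. Upstream sequences are shown because GATA factors act in both cell types and Gata1 is among the genes measured here. RefSeq promoters (assembly GRCm38.p6) were held for 6 of the 8 members, the others being Prg2 and Tpsb2. The 250 bases before the start were searched on both strands for a GATA motif, a C/EBP motif and a PU.1 motif. The GATA motif was searched as AGATAA in its first form, and further forms were AGATAG (other end), TGATAA (other beginning) and TGATAG (both changed). The C/EBP motif was TTGCNNAA, and the PU.1 motif was GAGGAAG. Letters of the GATA motif were found in 5 of the 6 (Prg3, Cpa3, Cma1, Mcpt4 and Ms4a2) and in 26.5% of all 32851 promoters in the table. The C/EBP and PU.1 letters had no match in the 6 windows, against 9.56% and 10.6% of all promoters. A match describes letters and is not a bound site. The 4 windows shown are those of both eosinophil members with an entry and of 2 mast cell members, Mcpt4, whose levels did not overlap between the genotypes, and Ms4a2, whose fitted difference was the lowest, read 5′ to 3′ on the gene's strand, with GATA matches in capitals.
Prg3, chr2:84987965-84988214, plus strand: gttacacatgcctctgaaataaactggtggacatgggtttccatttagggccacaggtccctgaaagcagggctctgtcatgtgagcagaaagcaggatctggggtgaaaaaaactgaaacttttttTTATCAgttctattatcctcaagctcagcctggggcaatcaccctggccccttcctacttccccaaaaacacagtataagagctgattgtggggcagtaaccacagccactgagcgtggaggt
Epx, chr11:87875537-87875786, minus strand: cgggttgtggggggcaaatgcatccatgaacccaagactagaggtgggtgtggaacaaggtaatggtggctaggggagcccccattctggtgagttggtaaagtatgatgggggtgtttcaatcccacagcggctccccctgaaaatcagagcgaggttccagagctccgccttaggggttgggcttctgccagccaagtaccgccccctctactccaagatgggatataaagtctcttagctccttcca
Mcpt4, chr14:56062311-56062560, minus strand: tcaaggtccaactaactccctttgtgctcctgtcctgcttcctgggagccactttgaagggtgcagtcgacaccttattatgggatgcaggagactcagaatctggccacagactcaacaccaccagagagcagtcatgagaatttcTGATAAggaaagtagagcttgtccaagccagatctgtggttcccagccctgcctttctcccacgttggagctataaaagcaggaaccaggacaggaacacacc
Ms4a2, chr19:11623720-11623969, minus strand: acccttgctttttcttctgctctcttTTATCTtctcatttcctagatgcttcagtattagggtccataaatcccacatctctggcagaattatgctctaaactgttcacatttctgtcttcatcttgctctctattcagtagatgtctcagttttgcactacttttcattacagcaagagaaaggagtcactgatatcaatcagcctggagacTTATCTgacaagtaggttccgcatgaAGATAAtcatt
Prg3 and Mcpt4 each hold 1 match, whose first base lies at -123 in Prg3 and at -103 in Mcpt4, counted from the start. Ms4a2 holds 3, at -224, -37 and -11, and Epx holds none.

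Some facts of the libraries bear on the values of all members. Gene counts ran from 13464057 to 18503833 in wild type and from 19250322 to 28191101 in Tnc-/-. The files of the genotypes list different gene identifiers and so come from different counting runs, which cannot be told apart from the genotype; no identifier listed by the wild-type files alone overlaps a member in the GENCODE M21 gene models. Levels are given as CPM, counts relative to the library total scaled by the TMM method. The targeted gene Tnc had 437, 292 and 327 CPM in the wild-type libraries and 33.4 to 55.0 CPM in Tnc-/-. Wild-type libraries 2 and 3 stood apart in receptor genes of smell and pheromone sensing, 1791 genes not known for a role in joints. Without the TMM scaling these summed to 1455 and 1043 CPM there, 86.2 CPM in wild-type library 1 and 32.9 to 41.3 CPM in Tnc-/-. Results are therefore also given without these 2 libraries, which leaves 1 wild-type library and assumes that it varies as the Tnc-/- libraries do.

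The 3 eosinophil granule genes had higher mean levels in the Tnc-/- joints, by similar factors, and 1 of them passed the test. Prg2 encodes eosinophil major basic protein, the crystalline core of the granule. Wild-type libraries 1 to 3 held 77.2, 33.3 and 20.3 CPM of Prg2, and Tnc-/- libraries 1 to 4 held 172, 98.5, 168 and 92.1 CPM. Every Tnc-/- library lay above every wild-type library, with wild-type library 1 nearest. Prg2 rose from 43.6 ± 29.8 CPM (SD, n = 3) to 133 ± 43.3 CPM (SD, n = 4). The log2 fold change was 1.60 (SE 0.46; edgeR, adjusted p = 0.0325, adjusted over 17791 genes). Across all genes tested, 29.0% were called, 10.3% higher and 18.7% lower, so 1 call among 8 members (12.5%) is near the background and is not a result about the members.

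Prg3 encodes a homologue of major basic protein, from a gene beside Prg2. Its level was 3.49, 3.06 and 0.668 CPM in wild type, where library 3 held 11 reads, and 8.84, 6.02, 9.01 and 5.49 CPM in Tnc-/-. The groups did not overlap. The log2 fold change of Prg3 was 1.61 (SE 0.58; edgeR, adjusted p = 0.0684), with a 95% interval from 0.28 to 2.93. Epx encodes eosinophil peroxidase, the haem enzyme of the granule matrix that makes hypohalous acids. Its level was 24.4, 12.4 and 4.31 CPM in wild type and 46.0, 24.4, 47.0 and 22.1 CPM in Tnc-/-. Tnc-/- library 4 lay below wild-type library 1, so the groups overlapped. The log2 fold change of Epx was 1.35 (SE 0.54; edgeR, adjusted p = 0.0925), with an interval from 0.12 to 2.57.

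**Figure D1:**
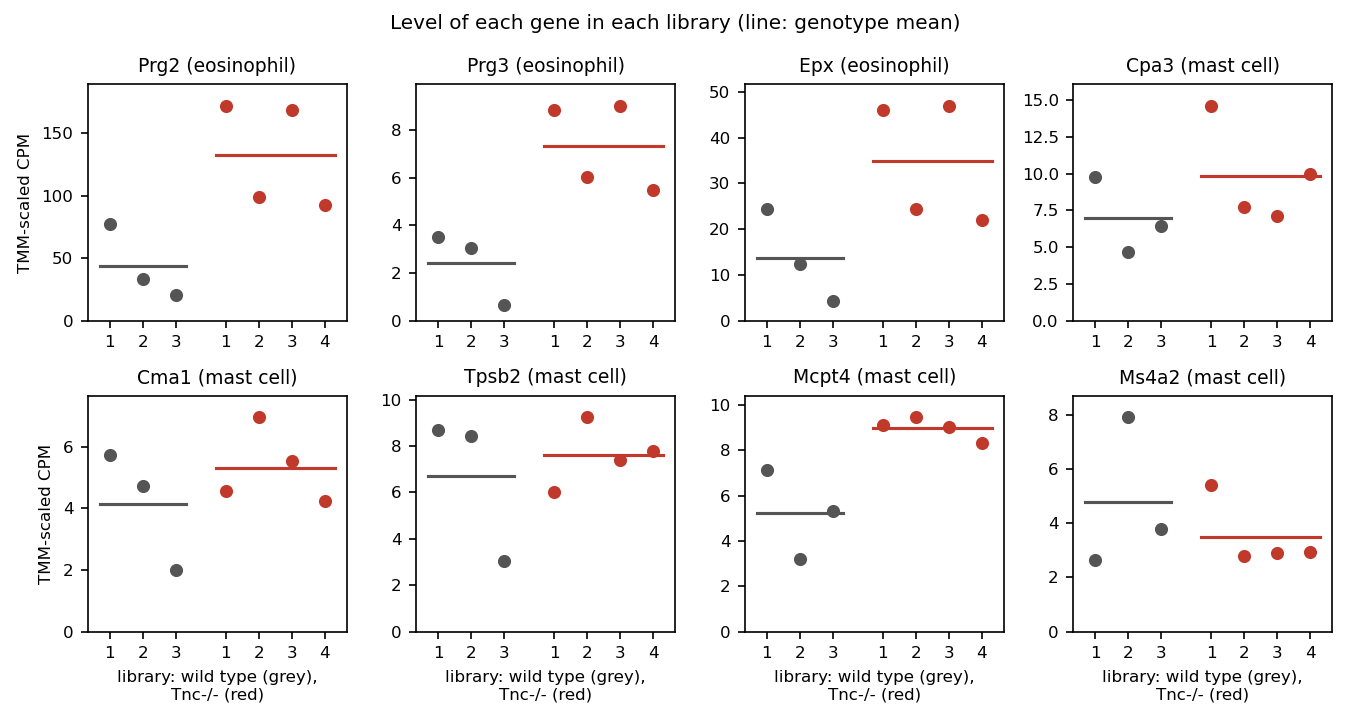
Level of each of the 8 genes in each library, in TMM-scaled CPM on a linear axis from 0, with wild-type libraries 1 to 3 in grey, Tnc-/- libraries 1 to 4 in red and a line at each genotype mean. In the panels of Prg2, Prg3 and Epx, Tnc-/- libraries 1 and 3 are highest and wild-type library 3 is lowest; the 5 mast cell panels do not share that order.

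In Tnc-/- the 3 eosinophil genes kept similar proportions from joint to joint, where the counts of Prg2 were 16.4 to 19.4 times those of Prg3 and 3.59 to 4.17 times those of Epx. In wild type, on fewer reads, they did not, and the same ratios ran from 10.9 to 30.5 for Prg3 and from 2.68 to 4.72 for Epx. Levels varied between joints of 1 genotype. The highest Tnc-/- library was 1.86 times the lowest for Prg2, 1.64 times for Prg3 and 2.13 times for Epx, and in wild type these spreads were 3.79, 5.22 and 5.65 times. Per kb of exon in the GENCODE M21 models, the mean level in Tnc-/- was 158 CPM for Prg2, 12.7 for Epx and 7.73 for Prg3, and in wild type 52.0, 5.01 and 2.53.

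The call of Prg2 depended on which libraries entered. With edgeR it was lost on leaving out wild-type library 2 (log2 fold change 1.44, adjusted p = 0.0969) or 3 (1.27, adjusted p = 0.0908), or Tnc-/- library 1 (1.44, adjusted p = 0.0876), 2 (1.72, adjusted p = 0.0521) or 3 (1.47, adjusted p = 0.0857). The share of all genes called higher was 5.54%, 3.27%, 4.82%, 5.73% and 3.91% in these fits, and 5.14% without Tnc-/- library 4, where Prg2 kept its call. The largest value of the 18 alternatives came without wild-type library 1 (2.40, adjusted p = 1.7e-05 by edgeR), where 24.3% of all genes were called higher. Prg3 was then at 2.08 (adjusted p = 0.00394 by edgeR) and Epx at 2.16 (5.5e-04). Without wild-type libraries 2 and 3 together the log2 fold change was 0.78 for Prg2 (adjusted p = 0.193 by edgeR), 1.07 for Prg3 (0.118) and 0.51 for Epx (0.488), at 2.53% of genes called higher. With log2 of the receptor sum as a covariate the log2 fold changes were 0.44 for Prg2, 0.98 for Prg3 and 0.22 for Epx. By edgeR 0 members were called in this fit, at a background of 1.07% called higher. The receptor sums did not overlap between the genotypes (lowest in wild type 86.2 CPM, highest in Tnc-/- 41.3 CPM). The covariate fit therefore cannot separate background from genotype, and a smaller difference or a lost call there decides nothing. DESeq2 called all 3 eosinophil genes, with adjusted p of 0.00120 for Prg2, 0.0266 for Prg3 and 0.0411 for Epx, at 12.3% called higher. With Bonferroni adjustment DESeq2 called 0 members (1.57% higher), limma voom called 0 (4.09% higher), and edgeR with the replicate number as a block called Prg2 (4.96% higher). Prg2 was higher in Tnc-/- in all 18 alternatives and past the threshold in 9 of them.

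None of the 5 mast cell genes passed the test with edgeR (adjusted p from 0.130 for Mcpt4 to 0.777 for Tpsb2), where 29.0% of all genes did. At an unadjusted p under 0.05 by edgeR the count was also 0 of 5, beside 7533 of all 17791 genes. DESeq2 called 0 of 5 as well, beside 35.1% of all genes. Mcpt4 encodes mast cell protease 4, a chymase of connective tissue mast cells. Its level was 7.14, 3.19 and 5.35 CPM in wild type and 9.14, 9.47, 9.01 and 8.32 CPM in Tnc-/-. Every Tnc-/- library lay above every wild-type library, and the Tnc-/- libraries were close to one another, with the highest 1.14 times the lowest. For Mcpt4 the log2 fold change was 0.78 (SE 0.36; edgeR, adjusted p = 0.130), with a 95% interval from -0.029 to 1.59. Members whose groups did not overlap, with Tnc-/- above, were Prg2, Prg3 and Mcpt4, 3 of 8 (37.5%), against 17.7% of all genes tested.

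Cpa3 encodes carboxypeptidase A3, a granule protease that basophils and mast cell precursors also make. Its level was 9.77, 4.65 and 6.44 CPM in wild type and 14.6, 7.74, 7.11 and 9.99 CPM in Tnc-/-. Of the Tnc-/- libraries, 1 and 4 exceeded wild-type library 1. For Cpa3 the log2 fold change was 0.50 (SE 0.39; edgeR, adjusted p = 0.358). Cma1 encodes mast cell protease 5, which is stored with Cpa3. Its level was 5.74, 4.72 and 2.00 CPM in wild type and 4.55, 6.96, 5.54 and 4.24 CPM in Tnc-/-, groups that overlapped. For Cma1 the log2 fold change was 0.36 (SE 0.47; edgeR, adjusted p = 0.596).

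Tpsb2 encodes the tryptase known as mast cell protease 6. Its level was 8.69, 8.44 and 3.04 CPM in wild type and 6.03, 9.25, 7.39 and 7.79 CPM in Tnc-/-. Wild-type library 3 was low and the others overlapped. The log2 fold change of Tpsb2 was 0.18 (SE 0.42; edgeR, adjusted p = 0.777) and turned negative with library totals as the scaling (-0.050). Tpsab1, a near copy of Tpsb2, held 0 to 10 reads a library, so how reads were divided between the copies is uncertain. Ms4a2 encodes the beta chain of the high-affinity receptor for immunoglobulin E, which amplifies its signal. Its level was 2.63, 7.91 and 3.77 CPM in wild type and 5.40, 2.79, 2.91 and 2.93 CPM in Tnc-/-. The highest value was in wild-type library 2, the library with the largest receptor sum. The log2 fold change of Ms4a2 was -0.44 (SE 0.52; edgeR, adjusted p = 0.554), and 0.14 without wild-type library 2 (adjusted p = 0.873 by edgeR). At the receptor genes' level per kb of exon, Ms4a2 would carry 0.632 CPM in wild-type library 2; the part of reads from introns was not tested.

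The intervals show how large a difference could go unseen. They ran from -0.38 to 1.39 for Cpa3, from -0.70 to 1.41 for Cma1, from -0.78 to 1.14 for Tpsb2 and from -1.61 to 0.73 for Ms4a2 on the log2 scale. Among the mast cell genes, Tpsb2 and Cma1 moved together, with counts in a ratio of 1.33 to 1.84 over the 7 libraries. The ratio of Mcpt4 to Cpa3 counts ranged from 0.625 to 1.27, and that of Ms4a2 to Cpa3 from 0.269 to 1.70, with the highest value in wild-type library 2. Without wild-type library 1, edgeR called Cpa3 (0.93, adjusted p = 0.0347) and Mcpt4 (1.16, adjusted p = 0.00643) along with all 3 eosinophil genes, at a background of 24.3% called higher. Per kb of exon the levels in wild type were 4.72 ± 1.78 CPM (SD, n = 3) for Mcpt4, 4.58 ± 1.71 for Cpa3, 4.22 ± 2.00 for Tpsb2, 3.81 ± 1.77 for Cma1 and 1.70 ± 0.988 for Ms4a2, and the first 4 did not differ beyond their spread. In Tnc-/- they were 8.11 ± 0.438 CPM (SD, n = 4) for Mcpt4, 6.50 ± 2.24 for Cpa3, 4.88 ± 1.13 for Cma1, 4.78 ± 0.831 for Tpsb2 and 1.25 ± 0.449 for Ms4a2. There Mcpt4 stood above Cma1 and Tpsb2 by more than the spread of either, and Cpa3 lay between them with a wide spread.

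Set side by side, the eosinophil genes had larger fitted differences between the genotypes than the mast cell genes. The median log2 fold change was 1.60 for the 3 eosinophil genes and 0.36 for the 5 mast cell genes, where the median of all genes tested was -9.0e-04; no test was made of these lists or of their difference. The eosinophil sum was 105, 48.8 and 25.3 CPM in wild type and 227, 129, 224 and 119.7 CPM in Tnc-/-, a mean of 59.7 ± 41.0 (SD, n = 3) against 175 ± 58.5 (SD, n = 4). The mast cell sum was 34.0, 28.9 and 20.6 CPM in wild type and 39.7, 36.2, 32.0 and 33.3 CPM in Tnc-/-, a mean of 27.8 ± 6.76 against 35.3 ± 3.45. The genotypes did not overlap in the eosinophil sum and overlapped in the mast cell sum. Prg2 made up most of the eosinophil sum, as with 77.2 of 105 CPM in wild-type library 1 and 172 of 227 CPM in Tnc-/- library 1. The eosinophil sum, and a ratio made from it, therefore mainly follow Prg2.

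A ratio of the sums within a library does not depend on how the library is scaled. The eosinophil sum was 3.09, 1.69 and 1.23 times the mast cell sum in wild-type libraries 1 to 3 and 5.70, 3.56, 7.02 and 3.60 times in Tnc-/- libraries 1 to 4. All 4 Tnc-/- ratios were above the 3 wild-type ratios, with wild-type library 1 just under the lowest. The mean log2 ratio was 0.89 ± 0.68 in wild type (SD, n = 3) and 2.25 ± 0.49 in Tnc-/- (SD, n = 4), a difference of 1.36. From the mean log2 CPM of each class, which weighs its genes equally, the difference was 1.37. The difference in the log2 ratio of sums was 1.22 with Ms4a2 left out of the sum and 1.32 with the receptor background subtracted, both chosen after the values were seen. It was 0.62 with wild-type library 1 as the only wild-type library.

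**Figure D2:**
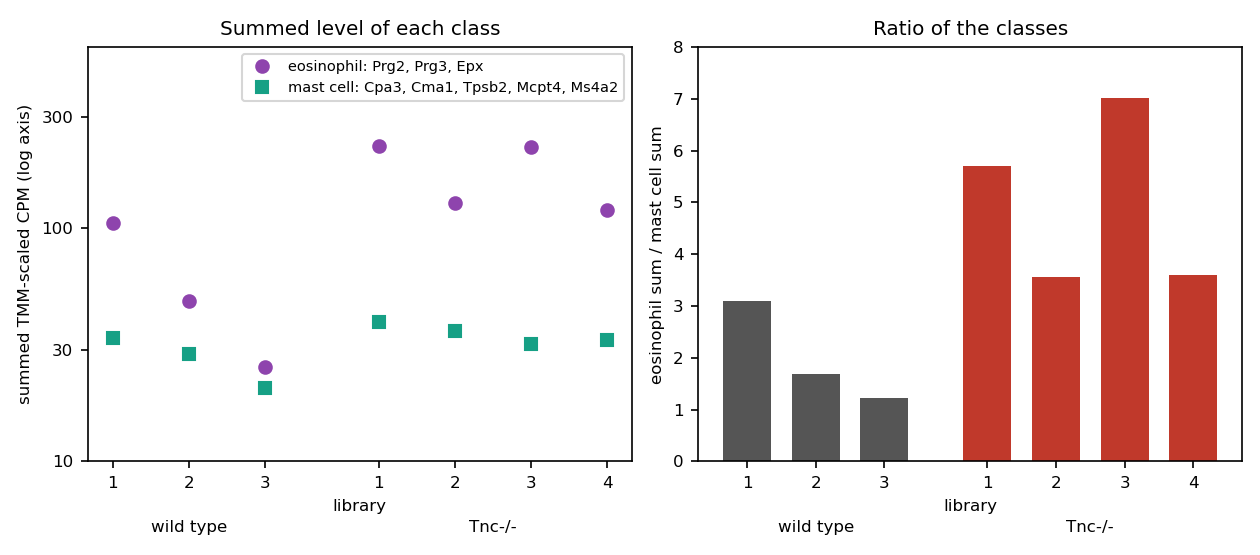
Left, summed TMM-scaled CPM of the 3 eosinophil genes (circles) and the 5 mast cell genes (squares) in each library on a log axis. Right, the ratio of the sums in each library, as bars from 0, with wild type in grey and Tnc-/- in red; the Tnc-/- ratios run from 3.56 to 7.02 and the wild-type ratios from 1.23 to 3.09.

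Other genes known in eosinophils gave a mixed picture. Of 9 such genes 7 were tested, of which 3 rose, 1 fell and 3 were not called, with a median log2 fold change of 0.92, beside 10.3% of all genes called higher and 18.7% lower. Ear1 and Ear2, of a family of near-identical ribonucleases, had 0 counts in every library, which for genes whose reads match several copies need not mean silence. Cebpe, a transcription factor needed for granule formation in eosinophils and neutrophils alike, rose from 12.6 ± 6.22 CPM (SD, n = 3) to 39.9 ± 6.23 CPM (SD, n = 4). Its log2 fold change was 1.66 (SE 0.32; edgeR, adjusted p = 0.00896), without overlap of the groups. The call of Cebpe held in all 7 fits that left out 1 library and without wild-type libraries 2 and 3 (1.03, adjusted p = 0.0285), and was lost with the covariate (0.78, adjusted p = 0.277).

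Gata1, a transcription factor that eosinophils, red cells and platelets need, rose by 0.90 on the log2 scale (SE 0.22; edgeR, adjusted p = 0.0170). Its level was 31.5, 22.1 and 27.9 CPM in wild type and 69.2, 42.8, 48.6 and 41.9 CPM in Tnc-/-, without overlap. This call was lost on leaving out wild-type library 2 (adjusted p = 0.0577 by edgeR) or 3 (0.0631), and both (0.140). Ear6, a further ribonuclease of the Ear family, was named after its value was seen. It rose by 1.16 (SE 0.38; edgeR, adjusted p = 0.0488), and of the 7 fits that left out 1 library, the 1 without wild-type library 1 kept the call. In Tnc-/- its level was 23.9, 11.6, 20.9 and 11.0 CPM, with libraries 1 and 3 above the others as in the 3 eosinophil members.

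Genes for the eosinophil surface were low in these joints. Siglecf, a lectin on mature mouse eosinophils, was at 1.99, 2.39 and 1.28 CPM in wild type and 5.25, 2.67, 3.36 and 2.98 CPM in Tnc-/-, without overlap (log2 fold change 0.92; SE 0.49; edgeR, adjusted p = 0.185). Ccr3, the receptor for eotaxins, was at 4.72, 1.20 and 3.89 CPM in wild type and 12.4, 4.35, 6.66 and 4.76 CPM in Tnc-/-, with overlap (log2 fold change 1.11; SE 0.59; edgeR, adjusted p = 0.189; called without wild-type library 1, at 1.56, adjusted p = 0.0252). Il5ra, which encodes the receptor chain for interleukin 5, went the other way and fell by 2.77 on the log2 scale (SE 0.82; edgeR, adjusted p = 0.0353). Its level was 0.859, 10.4 and 4.13 CPM in wild type and 1.15, 0.613, 0.896 and 0.314 CPM in Tnc-/-. Only wild-type libraries 2 and 3 were high, and wild-type library 1 lay among the Tnc-/- libraries. The gene spans 38.7 kb in GENCODE M21, where Prg2 spans 3.17 kb. Without wild-type libraries 2 and 3 the log2 fold change of Il5ra was -0.20 (adjusted p = 0.908 by edgeR), and each fit that left out 1 library, other than wild-type library 1, lost the call, with adjusted p as high as 0.170.

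Of 19 other genes known in mast cells 14 were tested, of which 3 rose, 0 fell and 11 were not called, and the median log2 fold change was 0.044, beside 10.3% of all genes called higher and 18.7% lower. These counts moved with the libraries and the scaling: without wild-type library 1, 5 rose and 4 fell of 15 tested (median -0.18; 24.3% of all genes called higher and 39.9% lower), and with library totals 2 rose and 1 fell (median -0.20; 5.35% of all genes higher and 25.5% lower). Hdc, the enzyme that makes histamine in mast cells, basophils and immature neutrophils, rose from 14.1 ± 2.73 CPM (SD, n = 3) to 32.5 ± 4.29 CPM (SD, n = 4). Its log2 fold change was 1.21 (SE 0.19; edgeR, adjusted p = 0.00680), without overlap. The call of Hdc held in all 7 fits that left out 1 library and without wild-type libraries 2 and 3 (0.93, adjusted p = 0.0365), and was lost with the covariate (0.84, adjusted p = 0.158). Fcer1g, the signalling chain that the immunoglobulin E receptor shares with receptors of other myeloid cells, rose by 0.82 (SE 0.23; edgeR, adjusted p = 0.0282). Ndst2, an enzyme of heparin synthesis, rose by 0.79 (SE 0.23; edgeR, adjusted p = 0.0350). For Fcer1g and Ndst2 each fit that left out 1 library, other than wild-type library 1, lost the call, with adjusted p as high as 0.117 and 0.111. Kit and Fcer1a, receptors of the mast cell surface, were not called. Kit was at 18.1, 49.4 and 38.3 CPM in wild type and 26.4, 19.4, 21.5 and 15.6 CPM in Tnc-/- (log2 fold change -0.76; SE 0.32; edgeR, adjusted p = 0.104). Its high libraries were again wild-type 2 and 3, and without them the log2 fold change was 0.19 (adjusted p = 0.692 by edgeR), while without wild-type library 1 Kit was called lower (-0.98, adjusted p = 8.4e-04). Fcer1a, the chain that binds immunoglobulin E, was at 1.02, 1.06 and 0.668 CPM in wild type and 2.55, 0.557, 1.46 and 1.52 CPM in Tnc-/- (log2 fold change 0.73; SE 0.65; edgeR, adjusted p = 0.424). Of 4 basophil genes 0 were called by edgeR, with a median log2 fold change of 0.15. At an unadjusted p under 0.05 by edgeR there was 1, beside 7533 of all 17791 genes. Without wild-type library 1 edgeR called 2, beside 64.2% of all genes.

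Growth factors and attractants of both cells were read from a list of 13 genes, of which 8 were tested, 1 rose, 1 fell and 6 were not called. With 10.3% of all genes called higher and 18.7% lower, these counts are near the background and say nothing particular of the list. Il5, the main eosinophil growth factor, had 0 reads in the wild-type libraries and in Tnc-/- library 4, and 3, 2 and 1 reads in Tnc-/- libraries 1 to 3, too few to compare. Csf2rb, the receptor chain shared by interleukin 3, interleukin 5 and GM-CSF, rose by 0.74 on the log2 scale (SE 0.18; edgeR, adjusted p = 0.0177), from 35.1 ± 8.37 CPM (SD, n = 3) to 58.6 ± 5.93 CPM (SD, n = 4). That call ended when wild-type library 2 or 3 was left out, and when Tnc-/- library 1 or 3 was, with adjusted p as high as 0.0606 by edgeR. Kitl, which encodes stem cell factor, fell by 0.49 on the log2 scale (SE 0.16; edgeR, adjusted p = 0.0448). Its level was 54.2, 43.7 and 53.0 CPM in wild type and 35.0, 39.2, 40.1 and 29.2 CPM in Tnc-/-, without overlap. Of the 7 fits that left out 1 library, the 1 without wild-type library 2 retained the call of Kitl, and in the others the adjusted p was as high as 0.139 by edgeR. Il33, an alarm signal to mast cells, had mean levels of 47.8 ± 6.05 CPM (SD, n = 3) and 43.1 ± 6.98 CPM (SD, n = 4), wild type first (log2 fold change -0.15; SE 0.16; edgeR, adjusted p = 0.523).

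**Figure D3:**
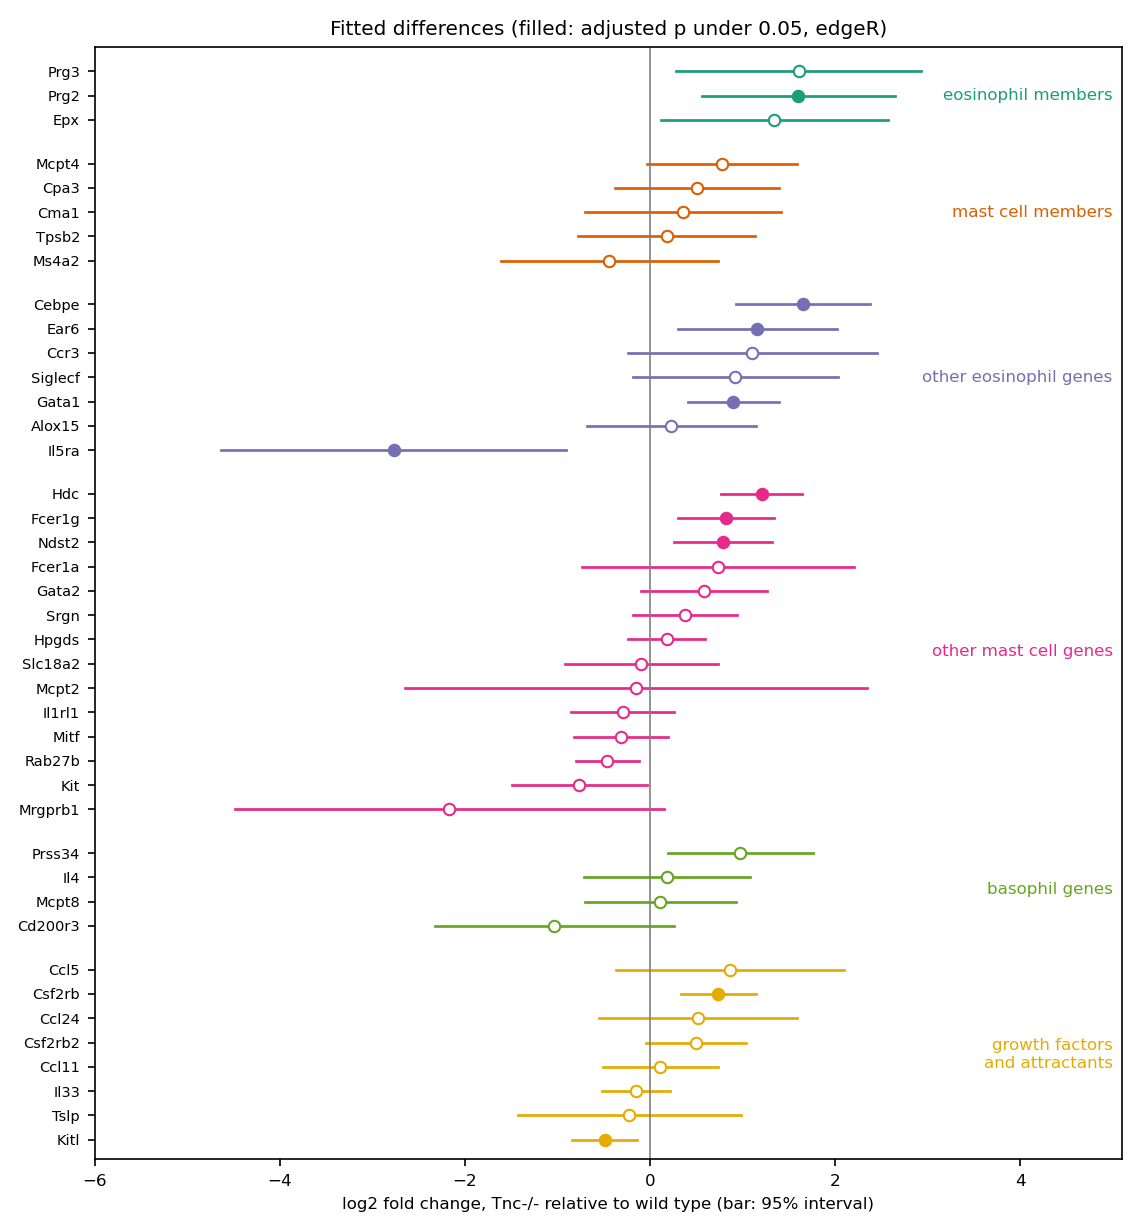
Fitted log2 fold change of Tnc-/- relative to wild type with its 95% interval for the 8 genes and for the tested genes of 4 other lists, 1 gene a line; filled points have an adjusted p under 0.05 (edgeR). The eosinophil members' intervals lie above 0, those of the mast cell members cross it, and Il5ra lies furthest to the left at -2.77.

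Lists of neutrophil precursor, erythroid and megakaryocyte genes had higher sums in Tnc-/-, as the eosinophil genes did. Neutrophil precursor genes, 14 in all, summed to 6681, 3135 and 3511 CPM in wild type and 12562, 7378, 9845 and 8742 CPM in Tnc-/-, with 9 called higher and 0 lower (10.3% and 18.7% of all genes). S100a9, a neutrophil calcium-binding protein and the highest of them, rose by 1.22 (SE 0.30; edgeR, adjusted p = 0.0187), a call that ended when wild-type library 2 or 3 was left out, and when Tnc-/- library 1 or 3 was. Erythroid genes summed to 10156, 5216 and 6409 CPM in wild type and 14337 to 27993 CPM in Tnc-/-, with 7 of 13 tested genes higher, among them the beta globin Hbb-bs (1.61; SE 0.33; edgeR, adjusted p = 0.0103; 0.0516 without wild-type library 3). Megakaryocyte genes summed to 303 to 587 CPM in wild type and 636 to 1059 CPM in Tnc-/-, with 5 of 7 higher; Ppbp, a platelet chemokine and the highest of them, was not called (1.03; SE 0.34; edgeR, adjusted p = 0.0508). Ppbp was called in 4 of 18 alternatives, with DESeq2 (adjusted p = 0.00888), without the filter on low counts (adjusted p = 0.0396 by edgeR), without wild-type library 1 (1.59, adjusted p = 1.0e-04) and with the replicate block (adjusted p = 0.0165). Among connective tissue genes 0 of 10 rose and 1 fell, with a median log2 fold change of 0.026. The collagen gene Col1a2, the highest of them, was at 0.045 (SE 0.29; edgeR, adjusted p = 0.922), and the 1 that fell was Lum, a proteoglycan of collagen fibrils (-0.63; SE 0.21; edgeR, adjusted p = 0.0482; lost on leaving out any 1 library but wild-type library 2, with adjusted p as high as 0.151). Skeletal muscle genes had fitted values above 0 in 8 of 8 cases (Acta1 turned with library totals, at -0.012), with a median of 0.61, 5 of 8 did not overlap between the genotypes (17.7% of all genes had Tnc-/- above without overlap) and 2 rose (10.3% of all genes). Those 2 were the myosin gene Myh4 (1.18, SE 0.22, edgeR adjusted p = 0.00856) and the calcium channel gene Ryr1 (1.28, SE 0.26, edgeR adjusted p = 0.00992). Both lie within the range of the log2 fold changes of the neutrophil precursor, erythroid and megakaryocyte genes. Acta1, muscle actin and the highest gene of the list by level, had the smallest fitted value (0.23; SE 0.25; edgeR, adjusted p = 0.522). Lum, Myh4 and Ryr1 were named after their values were seen. With library totals as the scaling Myh4 and Ryr1 were at 0.94 and 1.05 and still called, and Col1a2 was at -0.19. The part of muscle content in these values was not tested.

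Without wild-type libraries 2 and 3, the median log2 fold change was 0.50 for the neutrophil precursor list, 0.70 for the erythroid, 0.56 for the megakaryocyte and 0.38 for the muscle list. With all libraries these medians were 1.13, 1.20, 1.03 and 0.61. Without those 2 libraries the median was 0.75 for the other eosinophil list and 0.25 for the other mast cell list. Without wild-type library 1 edgeR called higher 14 of 14 neutrophil precursor genes, 13 of 13 erythroid, 7 of 7 megakaryocyte and 7 of 8 muscle genes, beside 24.3% of all genes. With library totals the counts called higher were 8 of 14, 7 of 13, 4 of 7 and 2 of 8, beside 5.35% of all genes. Set against the neutrophil precursor sum, the eosinophil sum was 15.7, 15.6 and 7.21 per 1000 CPM in wild type and 18.0, 17.5, 22.8 and 13.7 per 1000 CPM in Tnc-/-. The genotypes overlapped and wild-type library 3 was low. Set against the erythroid sum, it was 10.3, 9.35 and 3.95 per 1000 CPM in wild type and 8.09, 7.98, 13.3 and 8.35 per 1000 CPM in Tnc-/-, where 3 of the 4 Tnc-/- libraries lay below wild-type libraries 1 and 2. Against the neutrophil precursor sum the mast cell sum was 5.08, 9.22 and 5.86 per 1000 in wild type and 3.16, 4.91, 3.25 and 3.81 per 1000 in Tnc-/-, where all 4 Tnc-/- libraries were below the 3 wild-type libraries. On the log2 scale the differences against the neutrophil precursor sum were 0.55 for the eosinophil genes and -0.81 for the mast cell genes. Without wild-type libraries 2 and 3 they were 0.17 and -0.45, and without wild-type library 3 alone 0.18 and -0.88. These ratios were chosen after the values were seen. The part that the amount of marrow in a dissected joint has in the eosinophil values was not tested. Whether the neutrophil precursor, erythroid and megakaryocyte lists mark marrow or blood was not tested either.

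**Figure D4:**
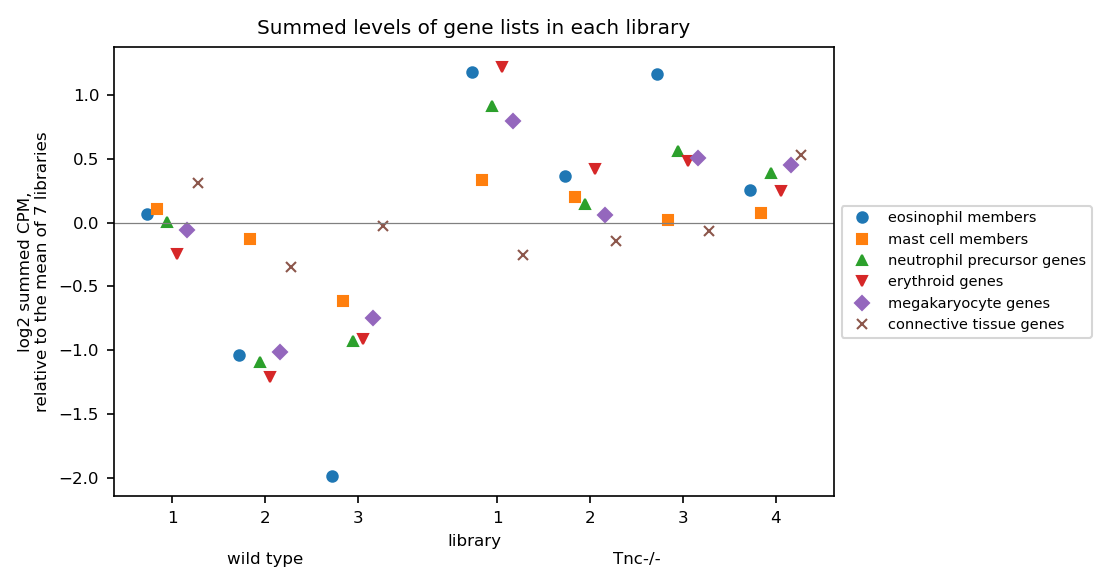
Summed CPM of 6 gene lists in each library, as log2 relative to the list's mean log2 sum over the 7 libraries. The eosinophil genes lie near the neutrophil precursor, erythroid and megakaryocyte lists in wild-type library 2, below them in wild-type library 3 and above them in Tnc-/- library 3; the mast cell points span a narrower range over the 7 libraries than the eosinophil points.

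The genes whose pattern over the 7 libraries was most like each class were picked from 12305 genes by the correlation of log2 CPM with the class mean, as a description of libraries that also share depth and background. For the eosinophil genes they were Proser1 (r = 0.992), the kinase gene Sbk1 (0.987), the metalloprotease gene Adam8 (0.987), the interferon-inducible Oasl1 (0.986) and Hs6st1 (0.986), which modifies heparan sulfate. For the mast cell genes they were Acrbp (r = 0.993), the kinetochore gene Dsn1 (0.981), Pgls of the pentose phosphate pathway (0.973), the cyclophilin gene Ppih (0.972) and Dpy30 (0.970), a subunit of histone methyltransferases. The eosinophil members correlated with one another at 0.94 to 0.97. The mast cell members did not share a pattern: r was 0.94 for Cma1 with Tpsb2 and 0.74 for Cpa3 with Mcpt4, but 0.050 for Cpa3 with Tpsb2. Ms4a2 was negative with each of the others, at -0.70 with Mcpt4. Likeness to the mast cell mean is thus not likeness to each mast cell gene.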

How the data were processed

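RNA was measured in 7 whole shoulder joints, with poly(A) capture and a NEBNext Ultra kit per the labels' protocols. The authors deposited raw counts, a table for each library; the submitters' processing notes name HISAT2 2.2.1, HTSeq 2.0.2, FastQC 0.11.9, DESeq2 1.38.3 and build GRCm39, and the annotation and strand setting are not given in the sources used here. Rows that name no gene held 30.1 to 32.7% of the reads in Tnc-/- files and were left out; wild-type files have no such rows. Columns left unmapped numbered 0.

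Of 56854 shared identifiers, 17791 passed filterByExpr and were fitted with edgeR 4.0.16 in R 4.3.3 (TMM, robust quasi-likelihood F test, genotype as the only term, Benjamini-Hochberg at 0.05; 5159 called, 1830 higher and 3329 lower, against 951 higher and 4541 lower with library totals). SE is the size of the log2 fold change divided by the root of F, and intervals are 95%. The fit was also run on simulated counts, drawn independently with the same dispersion for all genes and no difference in receptor background between libraries. That run therefore does not show how the fit performs on these libraries. Symbols came from the Tnc-/- files; exon lengths and spans came from GENCODE M21 (GRCm38), another build than the authors', so measured genes have no coordinates here. The members, lists and tests were chosen with earlier results of these data known. Named genes are the members, Tnc, 8 set receptors and factors, up to 3 called genes by smallest p from each companion list and the highest gene of each marker list. The 5 most alike genes per class, among those with a mean of at least 5 CPM, are also named. Others are marked, save Ear1, Ear2 and Tpsab1, which were not tested and are named for their similar copies. Alternatives were DESeq2 1.42.0 (Benjamini-Hochberg or Bonferroni), limma 3.58.1 voom, other scalings and filters, genes spanning at most 10 kb, the receptor sum as covariate, libraries left out and the replicate number as a block.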

Additional observations from a re-analysis of the deposited data

Results flagged for a closer look

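The 8 genes, the sums of both classes and their ratio, 11 values in all, were each examined within Tnc-/- for a joint that stood away from the rest, and 1 did. It was Ms4a2, the receptor beta chain, at 5.40 CPM in Tnc-/- library 1 against 2.79, 2.91 and 2.93 CPM in Tnc-/- libraries 2 to 4. Its distance from the next value made up 0.945 of the spread, over the 95% limit of 0.829 that Dixon's test sets for 4 samples. Chance gives such a distance in about 1 of 20 groups. Cpa3 was also highest in Tnc-/- library 1, at 14.6 CPM, with a distance of 0.616. The same library held the highest neutrophil precursor sum, 12562 CPM, and the most gene counts, 28191101; their part in the Ms4a2 value was not tested.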

How the results depend on the processing

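Called genes numbered 5159, and 1653 with DESeq2 and Bonferroni adjustment, 1004 with limma voom, 629 among genes spanning at most 10 kb, 400 with the background covariate, 825 without wild-type libraries 2 and 3, and 2229 to 14113 with 1 library left out (14113 without wild-type library 1). Called members numbered 1, where 29.0% of all genes were called, and 3 with DESeq2, where 35.1% were. They numbered 0 with DESeq2 and Bonferroni adjustment (9.29% of all genes called), with limma voom (5.64%) and with the covariate (2.25%). With 1 library left out they numbered 0 to 5, the 5 being without wild-type library 1, where 64.2% of all genes were called. The eosinophil median of 1.60 was 0.44 with the covariate, 0.78 without wild-type libraries 2 and 3, and 1.17 to 2.16 with 1 library left out. The mast cell median of 0.36 was 6.4e-04 among genes spanning at most 10 kb (4 of the 5, since Cpa3 is longer), -0.22 with the covariate, 0.017 without wild-type libraries 2 and 3, and 0.028 to 0.76 with 1 library left out, lowest without wild-type library 3. The difference in log2 ratio of the classes, 1.36, was 0.62 without wild-type libraries 2 and 3 and 1.06 to 1.72 with 1 library left out.

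Single genes turned direction as follows, none of them past the threshold there. With library totals, where the median of all genes was -0.24, Tpsb2 was at -0.050, Col1a2 at -0.19 and Acta1 at -0.012. Among genes spanning at most 10 kb Tpsb2 was at -0.094 and Acta1 at -0.069. With the covariate Cpa3 was at -0.23, Cma1 at -0.22, Tpsb2 at -0.27, Ms4a2 at 0.90, Il5ra at 0.90, Kit at 0.64, Col1a2 at -0.60, Acta1 at -0.12 and Ppih at -0.11. Without wild-type libraries 2 and 3 Cma1 was at -0.12, Tpsb2 at -0.20, Ms4a2 at 0.42, Kit at 0.19, Col1a2 at -0.33, Acta1 at -0.014 and Ppih at -0.024. Col1a2 was at -0.029 with at least 10 counts in every sample and at -0.13 with the block. With 1 library left out, Ms4a2 ran from -0.74 to 0.14, Tpsb2 from -0.17 to 0.50 and Col1a2 from -0.17 to 0.37. The causes were not tested.

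The replicate numbers were not shown to pair the samples: deviations of same-numbered libraries correlated at -0.029, 0.073 and -0.014. With the replicate number as a block 1932 genes were called, and 1 member, Prg2 (1.90, adjusted p = 0.0497 by edgeR). Counts limit Prg3, with 11 reads in wild-type library 3, more than Prg2.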
